A study of Mus musculus with 2 samples.

Results

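Toll-like receptors and the proteins that serve them were followed across the myeloid cells of 2 mouse squamous cell carcinomas. The set held 10 of the 31055 genes listed in each matrix, taken by symbol, with earlier results of these data known. It comprised the receptors Tlr1, Tlr2, Tlr3, Tlr4, Tlr7, Tlr9 and Tlr13, the lipopolysaccharide co-receptor Cd14, the chaperone Unc93b1 and the adaptor Myd88. All 10 were found in both matrices. The study co-injected the squamous carcinoma lines CIT6, labelled with YFP, and CIT9, labelled with RFP, under the skin of FVB mice, left the mosaic tumours untreated, and sectioned them. Leukocytes in YFP, RFP and mixed regions were tagged with light-activated oligonucleotide codes (ZipSeq), released with collagenases I and IV, sorted for CD45 and sequenced with 10x 3' v3 chemistry. Both samples belonged to 1 group and are called replicates 1 and 3 after their labels; no label states if they grew in different mice. There was no control tissue, so the comparisons are between cell classes of these tumours, and their p-values measure only how far the differences varied between these 2 tumours and across the classes.

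Toll-like receptors are membrane proteins of innate immune cells that recognise microbial products. Receptors of the cell surface bind lipids and lipoproteins of bacteria, whereas receptors inside endosomes bind nucleic acids and need Unc93b1 to leave the endoplasmic reticulum. Most pass their signal through Myd88 to kinases and the transcription factor NF-kappaB, and cell types differ in which receptors they carry: plasmacytoid dendritic cells (pDC) are known for Tlr7 and Tlr9, and type 1 conventional dendritic cells (cDC1) for Tlr3.

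The matrices held 89040909 and 170328781 gene UMIs (unique molecular identifiers, 1 per captured RNA molecule) in replicates 1 and 3. After filtering, 4632 and 6371 cells remained, with medians of 16461.5 and 20753 UMIs, and 9 barcodes were shared between the tumours against 4.34 expected from the size of the barcode list. Cells were gated by counts of marker genes into 15 classes, named after their markers, and UMIs were summed for each class and tumour and expressed as CPM, the gene's share of all gene UMIs scaled to a common total. The pDC-like class had 11 and 152 cells in replicates 1 and 3, the cDC1-like class 16 and 34, the cDC2-like class 109 and 154 and the activated dendritic class 15 and 17. The monocyte-like class had 102 and 297 cells, the neutrophil-like class 421 and 43, and the T or NK class, which served as the class that should lack most of these receptors, 551 and 1086. Macrophage-like cells were divided into 7 subsets named after marker genes and a remainder without a subset, which had 1353 and 1597 cells. The Mgl2 and Atp6v0d2 Mmp9 subsets were counted with them but taken whatever their number of macrophage markers. In each class every marker of its own list was detected, but the classes rest on those gates and may differ from names the authors gave. The cDC2-like class shared leading genes with the Mgl2 subset (Mgl2, Asgr2). Its first leading gene was Epcam, which is on the fibroblast or tumour list, at 11.7-fold over the mean of the other classes. Its own marker Cd209a followed at 8.46-fold. No class was given to 1034 cells (22.3%) in replicate 1 and 2033 cells (31.9%) in replicate 3. Such cells met no gate, met gates that conflict, or held too many markers of macrophages or of another lineage.

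Among the surface receptors, Tlr1 (ENSMUSG00000044827, chr5:64924679-64933563, minus strand) encodes the partner with which Tlr2 binds triacylated lipopeptides. Tlr2 (ENSMUSG00000027995, chr3:83836272-83841767, minus strand) encodes the lipoprotein receptor itself, Tlr4 (ENSMUSG00000039005, chr4:66827584-66930284, plus strand) the lipopolysaccharide receptor, and Cd14 (ENSMUSG00000051439, minus strand) the protein that hands lipopolysaccharide to Tlr4. Of the endosomal receptors, Tlr3 (ENSMUSG00000031639, chr8:45395665-45411080, minus strand) binds double-stranded RNA and signals without Myd88, and Tlr7 (ENSMUSG00000044583, chrX:167304929-167330558, minus strand) binds single-stranded RNA. Tlr9 (ENSMUSG00000045322, chr9:106222598-106226883, plus strand) binds unmethylated CpG DNA, and Tlr13 (ENSMUSG00000033777, chrX:106143204-106160493, plus strand), which mice have and humans lack, binds bacterial ribosomal RNA. Unc93b1 lies at chr19:3935186-3949340 on the plus strand (ENSMUSG00000036908) and Myd88 at chr9:119335934-119341411 on the minus strand (ENSMUSG00000032508). All are protein-coding, and coordinates span the whole gene in the GENCODE vM21 annotation of GRCm38, the assembly that mm10 denotes. Myd88 overlaps Slc22a14 on the same strand and Acaa1a on the other, and Tlr3 overlaps Gm45542 on the other strand. How reads in overlaps or shared with the Tlr1 paralog Tlr6 were counted is not given in the sources used here.

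Promoter sequences are shown for Tlr2, Tlr13 and Myd88, whose mean over the tumours stood highest in monocyte-like or neutrophil-like cells, and for Tlr3, highest in cDC1-like cells. They come from RefSeq for GRCm38.p6, run from 250 bases before to 50 after the RefSeq start, and were listed for 6 of the 10 genes. Both strands were searched for the NF-kappaB consensus, for GAAANNGAA (the core of an interferon-stimulated response element) and for GAGGAA (the core bound by PU.1), and capitals mark the matches. The windows are chr3:83841559-83841858 for Tlr2, chrX:106143025-106143324 for Tlr13, chr9:119339969-119340268 for Myd88 and chr8:45410331-45410630 for Tlr3.
Tlr2: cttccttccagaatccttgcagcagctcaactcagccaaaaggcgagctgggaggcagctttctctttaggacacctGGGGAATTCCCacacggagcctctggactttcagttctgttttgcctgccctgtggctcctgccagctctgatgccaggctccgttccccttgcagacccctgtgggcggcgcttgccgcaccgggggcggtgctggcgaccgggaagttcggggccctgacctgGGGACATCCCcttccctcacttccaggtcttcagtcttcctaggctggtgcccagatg
Tlr13: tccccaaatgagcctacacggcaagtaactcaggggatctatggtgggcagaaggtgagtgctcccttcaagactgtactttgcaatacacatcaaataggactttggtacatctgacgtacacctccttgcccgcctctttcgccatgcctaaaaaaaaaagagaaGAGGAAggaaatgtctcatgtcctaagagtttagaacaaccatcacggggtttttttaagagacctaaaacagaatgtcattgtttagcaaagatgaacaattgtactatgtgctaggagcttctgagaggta
Myd88: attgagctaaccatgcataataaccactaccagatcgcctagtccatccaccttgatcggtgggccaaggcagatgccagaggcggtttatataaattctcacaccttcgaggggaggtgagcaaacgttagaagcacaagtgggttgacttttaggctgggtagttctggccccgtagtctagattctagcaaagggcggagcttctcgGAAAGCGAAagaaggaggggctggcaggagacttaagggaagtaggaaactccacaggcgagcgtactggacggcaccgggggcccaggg
Tlr3: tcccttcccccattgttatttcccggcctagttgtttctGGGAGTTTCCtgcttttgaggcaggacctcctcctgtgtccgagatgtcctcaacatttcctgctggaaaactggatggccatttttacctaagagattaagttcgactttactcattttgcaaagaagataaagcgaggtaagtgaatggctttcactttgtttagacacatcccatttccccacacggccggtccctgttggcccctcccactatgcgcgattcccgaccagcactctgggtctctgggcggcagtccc
Tlr2 held the NF-kappaB consensus at -8 bases from the start and, as a pair of overlapping matches, at -173 and -172, and Tlr3 held it at -211. It was found in 8.46% of the 32851 promoters listed. Myd88 held the interferon-type letters at -40, which 8.56% of promoters hold, and Tlr13 held the PU.1 core at -83, which 28.3% hold. Tlr1 and Tlr9, not shown, also held the PU.1 core. A match describes the letters in the window and is no evidence of binding.

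Across the classes, Tlr7 stood highest in pDC-like cells, Tlr3 in cDC1-like cells, and Cd14 in neutrophil-like cells. Myd88 had its highest mean in neutrophil-like cells too, but in replicate 3 monocyte-like cells (85.0 CPM) lay beside them (86.5 CPM). Tlr13 had its highest mean in neutrophil-like cells, but in replicate 3 the Hmox1 subset (55.4 CPM) lay beside them (54.8 CPM). The Atp6v0d2 Mmp9 subset lay below the macrophages without a subset in both tumours for every member but Tlr9, which was nearly absent throughout. Unc93b1 stood highest in the interferon gamma subset (497 and 588 CPM in replicates 1 and 3), pDC-like cells (569 and 492 CPM) and the Folr2 subset (513 and 509 CPM), which overlapped. RNA freed from broken cells sets a background in such data. It was measured in nearly empty droplets with 1 to 99 gene UMIs, and for abundant genes such as Cd14 (602 and 758 CPM in replicates 1 and 3) it lay above the level in several classes. Levels are given within each gene and are not compared between genes.

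**Figure D1:**
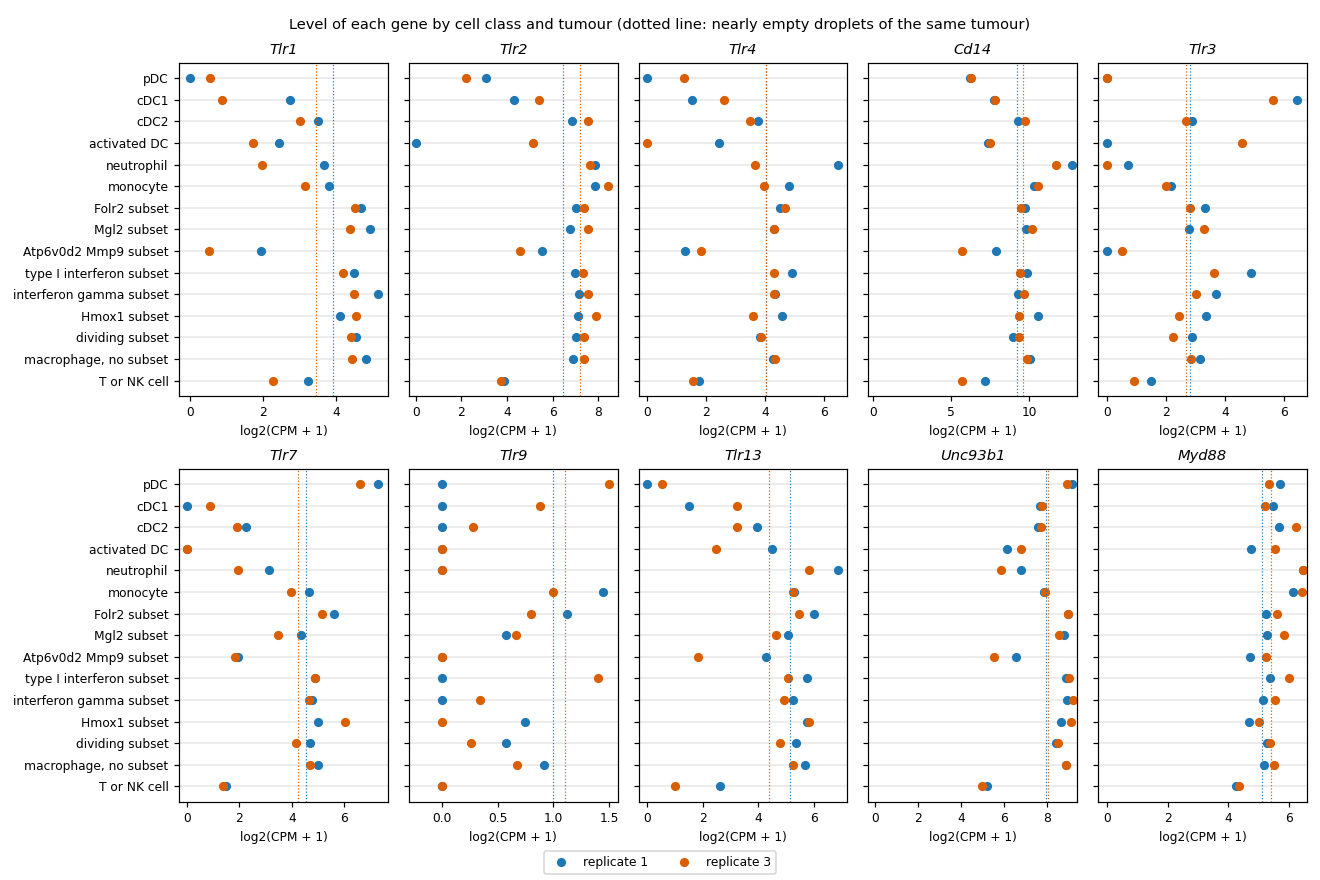
Level of each of the 10 genes on a log2(CPM + 1) scale (horizontal) in 15 gated classes (rows), 1 point per tumour, with dotted lines for the nearly empty droplets of the same tumour. Tlr7 peaked in the pDC row and Tlr3 in the cDC1 row, whereas the T or NK row lay left of the macrophages without a subset in all 10 panels.

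Tlr7 was detected in 9 of 11 pDC-like cells (81.8%) in replicate 1 and in 106 of 152 (69.7%) in replicate 3. The shares in T or NK cells were 1.09% and 1.29%, at median depths of 13038 and 14694.5 UMIs in pDC-like cells and 4565 and 6722.5 in T or NK cells. After each cell was thinned to 2000 UMIs the shares were 36.4% and 22.5% in pDC-like cells and 0.372% and 0.376% in T or NK cells, with 0 and 1 pDC-like and 14 and 23 T or NK cells left out as too shallow. The level was 155 CPM in the pDC-like cells of replicate 1 (95% exact Poisson interval 96.1 to 237) and 95.2 CPM in those of replicate 3 (82.7 to 109). Such intervals cover counting error only. No other class overlapped these values. The Hmox1 subset came next, with 31.1 and 64.3 CPM in replicates 1 and 3, and the Folr2 subset followed with 48.0 and 34.1 CPM. Macrophage-like cells without a subset had 30.9 and 25.0 CPM, monocyte-like cells 24.2 and 14.6 CPM and the Mgl2 subset 19.2 and 10.2 CPM. Conventional dendritic cells were low, with 3.77 and 2.79 CPM in the cDC2-like class and 0 and 1 UMI in the cDC1-like class. T or NK cells had 1.82 and 1.61 CPM, so the cDC2-like level lay just above that class.

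Tlr9 was close to the limit of detection everywhere. It had 0 UMIs in the 11 pDC-like cells of replicate 1, where 3 counts would make 22.2 CPM, and 4 UMIs in 4 of 152 pDC-like cells (2.63%) of replicate 3, or 1.83 CPM. The nearly empty droplets held 0.998 and 1.15 CPM in replicates 1 and 3. Macrophage-like cells without a subset had 22 UMIs in each tumour (0.885 and 0.592 CPM), monocyte-like cells 2 and 4 UMIs, and T or NK cells none. The gene did not pass the filter on low counts in the fit across classes, so differences between classes were not tested.

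Tlr3 was carried by cDC1-like cells. It was detected in 14 of 16 such cells (87.5%) in replicate 1 and 27 of 34 (79.4%) in replicate 3, against 13.8% and 14.3% of cDC2-like cells. The share in T or NK cells was 1.27% and 0.737%; median depths were 29372.5 and 30106 UMIs in cDC1-like cells and 21679 and 26080.5 in cDC2-like cells. The cDC1-like level was 86.4 CPM in replicate 1 and 48.1 CPM in replicate 3, above every other class in either tumour. The type I interferon subset followed with 28.5 and 11.4 CPM, and cDC2-like cells had 6.42 and 5.36 CPM, within the range of the macrophage subsets. Activated dendritic cells held 0 UMIs in replicate 1 and 10 in replicate 3, all from 1 cell. The pDC-like class had 0 UMIs in both tumours, at floors of 22.2 CPM in replicate 1 and 1.37 CPM in replicate 3.

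**Figure D2:**
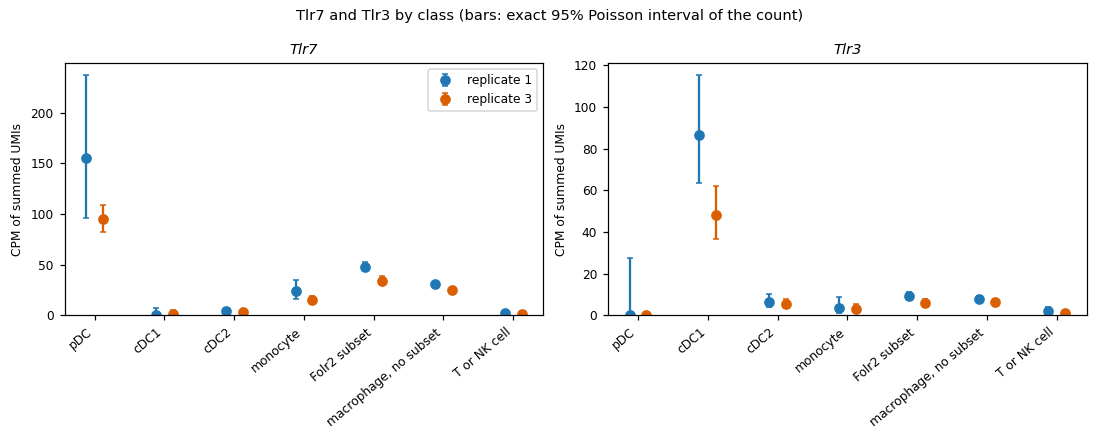
Tlr7 (left) and Tlr3 (right) in CPM of summed UMIs (vertical) for 7 classes (horizontal), 1 point per tumour with the exact 95% Poisson interval of its count. The pDC points of Tlr7 (155 and 95.2 CPM) and the cDC1 points of Tlr3 (86.4 and 48.1 CPM) lie above all other points of their panel.

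In pDC-like against conventional dendritic cells, the mean of the cDC1-like and cDC2-like classes, Tlr7 and its chaperone were the higher genes. Of the 9 genes tested, Tlr7 and Unc93b1 were higher in pDC-like cells, against 16.1% of all 11481 genes called higher, and Tlr1, Tlr2, Cd14, Tlr3 and Tlr13 were lower, against 17.8% called lower. Tlr7 was 6.08 ± 0.409 higher on the log2 scale (SE; 6.54 in replicate 1 and 5.40 in replicate 3; adjusted p = 2.68e-10 by edgeR's quasi-likelihood test with Benjamini-Hochberg correction). Unc93b1 had 569 and 492 CPM in the pDC-like cells of replicates 1 and 3, against 207 and 222 CPM in cDC1-like and 192 and 214 CPM in cDC2-like cells, and these values did not overlap (1.06 ± 0.284, edgeR adjusted p = 0.00575). The median difference was -2.58 over the 9 genes, the same with Tlr3 placed at its bound, and -0.07 over all genes tested.

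Of the genes lower in pDC-like cells, Tlr1, Tlr3 and Tlr13 had at most 1 UMI there, Tlr2 had few, and Cd14 was detected. Tlr2 had 1 and 8 UMIs in the pDC-like cells of replicates 1 and 3 (7.40 and 3.66 CPM), against 18.8 and 41.3 CPM in cDC1-like and 114 and 188 CPM in cDC2-like cells (-4.45 ± 0.669, -2.93 in replicate 1 and -4.62 in replicate 3; edgeR adjusted p = 1.98e-05). The T or NK class had 13.5 and 12.3 CPM of Tlr2, above pDC-like cells in both tumours. Tlr3 had 0 UMIs in pDC-like cells against 145 in conventional dendritic cells, at least 12.4-fold lower against a floor of 3 counts over the group (edgeR adjusted p = 3.51e-05). Tlr13 and Tlr1 each had 1 UMI over both tumours in pDC-like cells. Their levels were 0.0442 (95% counting interval 0.00111 to 0.253) and 0.0608 (0.00152 to 0.351) of those in conventional dendritic cells, with edgeR adjusted p = 0.0193 for Tlr13 and 0.0208 for Tlr1. These ratios pool the tumours and rest mainly on replicate 3, with 2184582 pDC-like UMIs against 135226 in replicate 1. In replicate 1 the floor of 3 counts lay above both conventional classes for Tlr13 (1.88 and 14.3 CPM) and Tlr1 (5.64 and 10.2 CPM). The 0 UMIs there set no lower level. Cd14 reached 74.0 and 76.0 CPM in pDC-like cells, below the nearly empty droplets, against 214 and 221 CPM in cDC1-like and 622 and 835 CPM in cDC2-like cells (-2.58 ± 0.547, edgeR adjusted p = 0.000832). Tlr4 had 3 UMIs in pDC-like cells, a ratio of 0.133 (0.0269 to 0.401), and did not pass (edgeR adjusted p = 0.115), although it did with DESeq2 (adjusted p = 0.0478) and with no filter on low counts (edgeR adjusted p = 0.0110). Myd88 was detected throughout, at 51.8 and 39.8 CPM in pDC-like cells, and its difference of -0.53 ± 0.276 did not pass (edgeR adjusted p = 0.145). With free RNA subtracted the calls of Unc93b1 (edgeR adjusted p = 0.0617) and Tlr13 (0.0565) were lost.

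Between the conventional classes, Tlr3 was higher and Tlr2 lower in cDC1-like cells than in cDC2-like cells. The Tlr3 difference was 3.59 ± 0.413 (3.78 in replicate 1 and 3.26 in replicate 3; edgeR adjusted p = 9.31e-06), and the Tlr2 difference -2.09 ± 0.451 (-2.47 and -1.98; edgeR adjusted p = 0.00586). Thus 1 of 9 genes was called higher and 1 lower, against 2.81% and 2.91% of all genes. The Tlr2 call was lost when free RNA was subtracted (edgeR adjusted p = 0.0781). The other 7 genes did not pass; Cd14 came nearest, at 214 and 221 CPM in cDC1-like cells and 622 and 835 CPM in cDC2-like cells (-1.60 ± 0.521, edgeR adjusted p = 0.0768, and 3.94e-09 with no filter on low counts). Dropping the filter leaves the counts of Cd14 as they were. It changes which genes enter the scaling, the shared estimate of spread and the adjustment. The same holds for the p-values given with no filter in the other comparisons, and what moved them was not tested. Tlr7 had 1 UMI in cDC1-like cells, 0.185 of the cDC2-like level with an interval of 0.00449 to 1.14. Unc93b1 (207 and 222 CPM in cDC1-like cells, 192 and 214 CPM in cDC2-like cells) overlapped between the classes.

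Conventional dendritic cells, averaged over the cDC1-like and cDC2-like classes, were compared with macrophage-like cells, taken as the mean over the 7 subsets and the remainder. They had more Tlr3, through the cDC1-like class, and fewer transcripts of most other receptors. Tlr3 was higher by 1.87 ± 0.274 (edgeR adjusted p = 1.65e-05), 1 of 9 genes against 16.1% of all genes called higher. The cDC1-like class alone stood above the remainder in Tlr3 (86.4 and 48.1 CPM against 7.97 and 6.16 CPM). The cDC2-like class (6.42 and 5.36 CPM) lay below the remainder in both tumours. Lower were 5 of 9 genes, against 14% of all genes (30.1% either way): Tlr7, Tlr13, Tlr1, Tlr2 and Unc93b1. Tlr13 had 1.88 and 8.43 CPM in cDC1-like and 14.3 and 8.37 CPM in cDC2-like cells, against 49.9 and 36.5 CPM in macrophage-like cells without a subset (-1.81 ± 0.333, -2.77 in replicate 1 and -1.46 in replicate 3; edgeR adjusted p = 0.000199). Both conventional classes lay below the remainder in both tumours. Tlr1 had 5.64 and 0.843 CPM in cDC1-like and 10.2 and 7.08 CPM in cDC2-like cells, against 27.0 and 20.4 CPM in the remainder (-1.64 ± 0.342, edgeR adjusted p = 0.000736). Tlr7 differed by -3.75 ± 0.422 (edgeR adjusted p = 5.26e-07) and Unc93b1 by -0.74 ± 0.193 (edgeR adjusted p = 0.00513). Tlr2 differed by -0.80 ± 0.252 (edgeR adjusted p = 0.0182), and cDC2-like cells alone (114 and 188 CPM) overlapped the remainder (120 and 166 CPM). The Tlr2 call was lost without the tumour block (edgeR adjusted p = 0.0707), and with free RNA subtracted those of Tlr2 (0.112) and Unc93b1 (0.0555) were lost. Tlr4 (-1.05 ± 0.441), Cd14 (-0.64 ± 0.297) and Myd88 (0.37 ± 0.154) did not pass. Tlr4 was called lower with DESeq2 (adjusted p = 0.0490) and, by edgeR, with no filter (adjusted p = 0.00336), with deeper cells (0.0325) and against the remainder alone (0.0269). Cd14 was called lower with no filter (edgeR adjusted p = 4.72e-05) and against the remainder alone (0.0357), and Myd88 higher with deeper cells (0.0486). The median difference was -0.80 over the 9 genes and -0.03 over all genes.

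Monocyte-like cells carried more Tlr2, Cd14 and Myd88 than macrophage-like cells. Tlr2 had 232 and 343 CPM in monocyte-like cells of replicates 1 and 3, against 120 and 166 CPM in the remainder and between 109 and 235 CPM in the subsets other than Atp6v0d2 Mmp9. Within each tumour monocyte-like cells stood above all macrophage subsets (1.16 ± 0.256, 0.99 in replicate 1 and 1.28 in replicate 3; edgeR adjusted p = 0.00195). The share of monocyte-like cells with a Tlr2 UMI was 78.4% and 91.9%, against 4.72% and 7.55% of T or NK cells, with median depths of 11115 and 12129 against 4565 and 6722.5 UMIs. Myd88 had 70.0 and 85.0 CPM in monocyte-like cells, against 35.2 and 44.2 CPM in the remainder, and no macrophage subset reached the monocyte-like level of its tumour (0.94 ± 0.169, edgeR adjusted p = 0.00028). Cd14 had 1271 and 1500 CPM in monocyte-like cells, against 1047 and 908 CPM in the remainder. The Hmox1 subset of replicate 1, at 1478 CPM, lay above the monocyte-like cells of that tumour (1.06 ± 0.340, edgeR adjusted p = 0.0250). These were 3 of 9 genes against 14.3% of all genes called higher, with a median of 0.28 over the 9 genes and -0.02 over all genes. The Atp6v0d2 Mmp9 subset, which held little of most of these genes, enters that mean. Against the remainder alone the difference was 0.94 for Tlr2 (edgeR adjusted p = 0.083) and 0.47 for Cd14 (0.569), and neither call held, whereas that of Myd88 did. The Cd14 call was also lost with DESeq2 (adjusted p = 0.0583) and without the tumour block (edgeR adjusted p = 0.0773), and with free RNA subtracted both Tlr2 (0.0592) and Cd14 (0.335) were lost.

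No gene of the set was called lower in monocyte-like cells by edgeR, against 11% of all genes, although 2 had an unadjusted p under 0.05 and DESeq2 called 1, Unc93b1. Unc93b1 had 233 and 239 CPM in monocyte-like cells, against 472 and 470 CPM in the remainder (-0.67 ± 0.257, edgeR adjusted p = 0.0615). Tlr1 had 13.0 and 7.91 CPM in monocyte-like cells, against 27.0 and 20.4 CPM in the remainder (-0.63 ± 0.286, edgeR adjusted p = 0.112). Both genes were lower in monocyte-like cells of both tumours, and both were called lower against the remainder alone (edgeR adjusted p = 0.0260 for Unc93b1 and 0.00245 for Tlr1). Tlr4, Tlr3, Tlr7 and Tlr13 did not pass, and the sign of Tlr4, Tlr7 and Tlr13 changed under some settings.

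Neutrophil-like cells had the highest Cd14 levels, 6676 CPM in replicate 1 and 3350 CPM in replicate 3, against 1271 and 1500 CPM in monocyte-like cells. The groups did not overlap (2.23 ± 0.521, 3.14 in replicate 1 and 1.02 in replicate 3; edgeR adjusted p = 0.00366). Tlr13 had 114 and 54.8 CPM in neutrophil-like cells, against 38.0 and 36.8 CPM in monocyte-like cells (1.60 ± 0.379, 2.32 and 0.43, edgeR adjusted p = 0.00409). The replicate 3 value of neutrophil-like cells came from 43 cells with 346867 UMIs of all genes, and the Tlr13 difference lay mainly in replicate 1. Tlr4 had 87.7 CPM (interval 73.5 to 104) in neutrophil-like cells of replicate 1 and 11.5 CPM, from 4 UMIs (3.14 to 29.5), in those of replicate 3, against 26.8 and 14.6 CPM in monocyte-like cells. It was called higher (2.19 ± 0.448, edgeR adjusted p = 0.00125), but the difference was 2.44 in replicate 1 and -0.46 in replicate 3, so the call rests on replicate 1. These were 3 of 9 genes against 12.6% of all genes called higher. By edgeR 0 were lower, against 8.62% of all genes, with 1 at an unadjusted p under 0.05 and 0 called by DESeq2.

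The other genes of the set did not pass in neutrophil-like against monocyte-like cells. Tlr2 had 233 and 199 CPM in neutrophil-like and 232 and 343 CPM in monocyte-like cells (0.10 ± 0.381, 0.75 in replicate 1 and -0.92 in replicate 3; edgeR adjusted p = 0.903). The fit scales each column by TMM, so its differences depart from the ratio of the CPM values. Myd88 had 88.3 and 86.5 CPM in neutrophil-like and 70.0 and 85.0 CPM in monocyte-like cells (0.67 ± 0.247, edgeR adjusted p = 0.0586). Its difference was 1.08 in replicate 1 and -0.11 in replicate 3, so the tumours differed in sign. Myd88 was called by DESeq2 (0.85, adjusted p = 0.00344), whose scaling moved the median of all genes in this comparison by 0.176. Unc93b1 had 112 and 57.7 CPM in neutrophil-like and 233 and 239 CPM in monocyte-like cells (-0.91 ± 0.345, edgeR adjusted p = 0.0649, and 0.00372 with no filter). Its level was lower in neutrophil-like cells of both tumours. Tlr3 had 1 UMI in neutrophil-like cells, 0.172 of the monocyte-like level (interval 0.00411 to 1.11).

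The neutrophil-like cells of the tumours were not alike. Their marker list summed to 124445 CPM in replicate 1 and 24076 CPM in replicate 3, and their median depths of 2646 and 2716 UMIs were far below those of monocyte-like cells. In the 43 cells of replicate 3, fibroblast or tumour markers summed to 2050 CPM (6 of 8 detected, Krt5 and Epcam at 0), against 31.2 CPM in replicate 1 (4 of 8, with Dcn, Krt5, Krt14 and Epcam at 0). Genes of the dividing list summed to 1219 CPM in replicate 3 and 18.8 CPM in replicate 1, and macrophage markers to 1911 CPM in replicate 3 and 8315 CPM in replicate 1, with 10 of 10 detected in both. The part of these cells in the differences was not tested. With cells of at least 3000 UMIs and 1000 genes, Tlr13 (0.88, edgeR adjusted p = 0.217) and Cd14 (1.34, edgeR adjusted p = 0.0824) no longer passed. Cd14 was also lost with free RNA subtracted (edgeR adjusted p = 0.262), and Tlr13 without the tumour block (edgeR adjusted p = 0.0568).

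**Figure D3:**
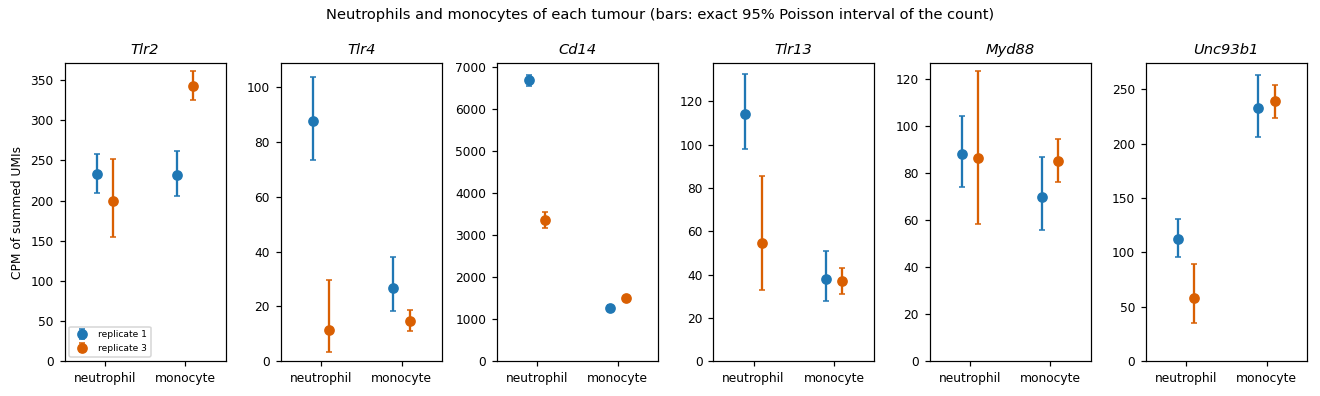
CPM of summed UMIs (vertical) of 6 genes in neutrophil-like and monocyte-like cells (horizontal) of each tumour, with exact 95% Poisson intervals. Cd14 and Tlr13 lie higher in neutrophil-like cells of both tumours, whereas Tlr4 does so in replicate 1 (87.7 against 26.8 CPM) and not in replicate 3 (11.5 against 14.6 CPM).

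Among the subsets counted with the macrophage-like cells, the Atp6v0d2 Mmp9 subset (25 and 53 cells in replicates 1 and 3) stood apart. Its gate did not ask for macrophage markers, which summed far lower there than in the remainder. The differences below are thus not shown to lie within macrophages. Of the 9 genes tested, 8 were lower than in the remainder without a subset, against 14.7% of all genes called lower, and 0 were higher, against 13% and 27.7% either way (0 also at an unadjusted p under 0.05 and by DESeq2). The median difference was -2.90 over the 9 genes and -0.12 over all genes. Unc93b1 had 93.7 and 46.1 CPM in the subset, against 472 and 470 CPM in the remainder (-2.78 ± 0.358, edgeR adjusted p = 4.31e-06). Tlr7 had 2.84 and 2.56 CPM in the subset, against 30.9 and 25.0 CPM in the remainder (-3.27 ± 0.469, edgeR adjusted p = 1.95e-05). Neither gene overlapped between the groups. Tlr2 had 45.4 and 23.0 CPM in the subset, against 120 and 166 CPM (-2.13 ± 0.437, -1.35 in replicate 1 and -2.79 in replicate 3; edgeR adjusted p = 0.00071), and Cd14 had 231 and 51.6 CPM, against 1047 and 908 CPM (-2.90 ± 0.548, -2.13 and -4.08; edgeR adjusted p = 0.000318). Tlr13 had 18.5 and 2.56 CPM in the subset, against 49.9 and 36.5 CPM in the remainder (-2.53 ± 0.503, -1.37 and -3.60; edgeR adjusted p = 0.000535). In all 3 of these genes the subset lay further below the remainder in replicate 3.

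Tlr4 had 1 and 6 UMIs in the Atp6v0d2 Mmp9 subset (1.42 and 2.56 CPM), against 18.3 and 19.2 CPM in the remainder (-2.92 ± 0.713, edgeR adjusted p = 0.00339). Tlr1 had 3 UMIs over both tumours, a ratio of 0.0427 to the remainder (interval 0.0088 to 0.125; edgeR adjusted p = 2.37e-06), and Tlr3 had 1 UMI, a ratio of 0.0477 (0.0012 to 0.267; edgeR adjusted p = 0.00282). These receptors were thus at or near the floor in the subset. Myd88 alone did not pass, at 25.6 and 37.1 CPM in the subset and 35.2 and 44.2 CPM in the remainder (-0.26 ± 0.254, edgeR adjusted p = 0.497). The subset was gated on its own 6 markers (28164 and 23338 CPM summed) and its macrophage markers summed to 11378 CPM in replicate 1 and 1434 CPM in replicate 3, against 52646 and 43872 CPM in the remainder. Cells were deep, with medians of 25701 and 41750 UMIs. The Cd14 call was lost when free RNA was subtracted (edgeR adjusted p = 0.0663), and the other 7 calls held under every alternative that gave a test.

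**Figure D4:**
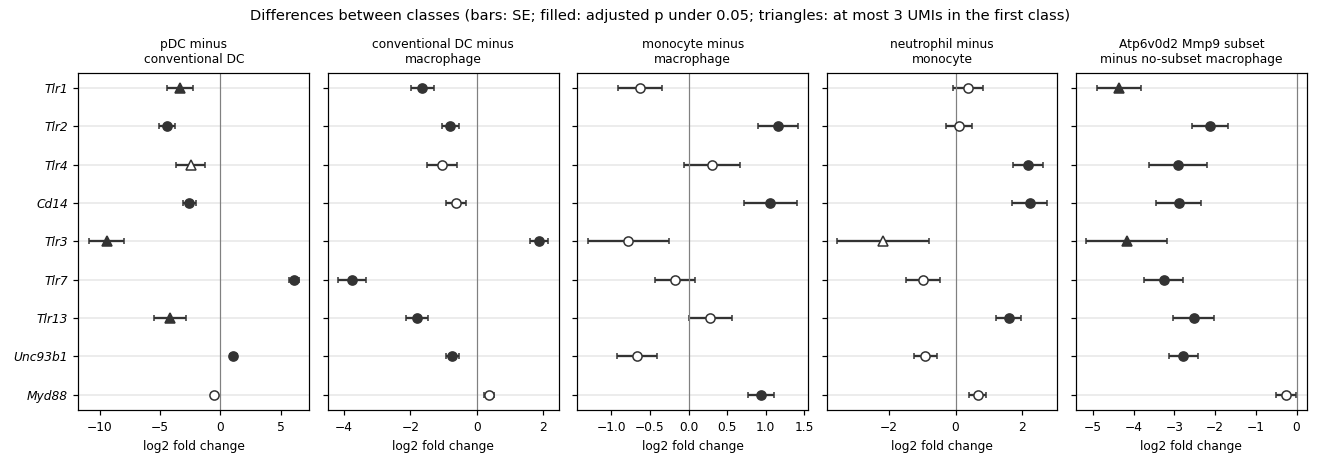
Log2 fold change (horizontal) with its SE for 9 genes (rows) in 5 comparisons between classes; filled symbols have an edgeR adjusted p under 0.05, and triangles mark genes with at most 3 UMIs in the class named first, whose fitted value is no bound. Tlr7 lies right of 0 in pDC-like cells and left of 0 in conventional dendritic cells and in the Atp6v0d2 Mmp9 subset, where all 9 symbols lie left of 0.

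Of the remaining macrophage subsets, Folr2 and type I interferon were tested against the remainder. The Folr2 subset (371 and 242 cells) had none of 9 genes called by edgeR or DESeq2 against the remainder, where 0.157% of all genes were called (0.105% higher and 0.0523% lower), and 1 had an unadjusted p under 0.05. That gene was Tlr7, at 48.0 and 34.1 CPM in the Folr2 subset, against 30.9 and 25.0 CPM in the remainder (0.49 ± 0.225, edgeR adjusted p = 1). The share of cells with a Tlr7 UMI in the Folr2 subset was 59.0% and 62.8%. The type I interferon subset (49 cells in each tumour) likewise had none of 9 called by edgeR, where 1.4% of all genes were called (1.39% higher and 0.00871% lower), with 1 at an unadjusted p under 0.05 and 1 called by DESeq2. This was Tlr3, at 28.5 and 11.4 CPM in the type I interferon subset, against 7.97 and 6.16 CPM in the remainder (1.43 ± 0.406, 1.77 in replicate 1 and 0.85 in replicate 3, edgeR adjusted p = 0.124, DESeq2 adjusted p = 0.0136). It also passed with no filter on low counts (edgeR adjusted p = 0.0102) and in the other settings ranged from 0.0823 to 0.662. Tlr1 stood highest in the interferon gamma subset (34.5 and 21.2 CPM), which overlapped the Mgl2 subset (29.5 and 19.7 CPM) and the remainder (27.0 and 20.4 CPM).

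The spatial codes gave no called difference in the set. The labels do not say which code marked which region, so macrophage-like cells were divided at each tumour's median ratio of the codes ZC1 and ZC5, which both tumours share. The ZC1-rich and ZC5-rich sides held 1186 and 1187 cells in replicate 1 and 1275 and 1280 cells in replicate 3. Their median ZC1 counts were 193 and 120 in replicate 1 and 23 and 19 in replicate 3, so ZC1 hardly separated the sides in replicate 3, where median ZC5 counts were 53 and 88.5. By edgeR 0 of 10 genes were called, against 0.335% of the 12525 genes tested (0.263% higher and 0.0719% lower), 1 had an unadjusted p under 0.05 (Tlr7, 0.14 ± 0.071), and DESeq2 called 0. Tlr9, which passed the filter here, differed by -0.48 ± 0.395.

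Of the 54 other genes of the Toll-like receptor pathway that were listed, 53 were matched by symbol and 51 were tested. In pDC-like against conventional dendritic cells, 9 of the 51 were higher and 9 lower, near the shares over all genes (16.1% higher and 17.8% lower). Among 7 genes of folding, trafficking and processing 5 were higher and 1 lower. Ctsl, a lysosomal protease that cleaves endosomal receptors, had 1841 and 2288 CPM in pDC-like cells, against 31.9 and 16.9 CPM in cDC1-like and 42.6 and 54.5 CPM in cDC2-like cells (5.72 ± 0.325, edgeR adjusted p = 1.07e-11). Ctsb, another lysosomal protease, differed by 1.94 ± 0.318 (edgeR adjusted p = 5.59e-05). Cd180, a receptor related to Tlr4, had 118 and 126 CPM in pDC-like cells, against 13.2 and 30.4 CPM in cDC1-like and 15.1 and 18.7 CPM in cDC2-like cells (2.37 ± 0.315, edgeR adjusted p = 4.02e-06). Lower in pDC-like cells were Tnfaip3, an inhibitor of NF-kappaB signalling (-1.79 ± 0.362, edgeR adjusted p = 0.000507), Tab1, a partner of the kinase TAK1 (-1.90 ± 0.598, edgeR adjusted p = 0.0171), and the adaptor Ticam2. Ticam2 had 0 UMIs in pDC-like cells of either tumour, against 0 and 2 in cDC1-like and 7 and 26 in cDC2-like cells (edgeR adjusted p = 0.0445).

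In cDC1-like against cDC2-like cells, 2 of the 51 were higher and 1 lower, against 2.81% and 2.91% of all genes. Tlr11, a mouse receptor for protozoan profilin, had 7 and 10 UMIs in cDC1-like cells of replicates 1 and 3 and 2 in cDC2-like cells of each tumour (edgeR adjusted p = 0.0186). Chuk, a kinase of the NF-kappaB pathway, differed by 1.08 ± 0.267 (edgeR adjusted p = 0.0156) and Nfkbia, which holds NF-kappaB in the cytoplasm, by -1.94 ± 0.376 (edgeR adjusted p = 0.00239). In conventional dendritic against macrophage-like cells 11 of the 51 were higher and 9 lower, against 16.1% and 14% of all genes. Higher were 4 of 6 transcription factors, and lower were 4 of 7 genes of folding, trafficking and processing, among them the lysosomal proteases Lgmn (-2.80 ± 0.354, edgeR adjusted p = 1.91e-06), Ctsl (-2.78 ± 0.255, 1.87e-08) and Ctsb (-2.63 ± 0.255, 3.90e-08). The lipid scavenger Cd36, which acts with Tlr2, was higher by 2.48 ± 0.510 (1.20 in replicate 1 and 3.18 in replicate 3; edgeR adjusted p = 0.000704). Tlr11 was also called higher (edgeR adjusted p = 0.000651). Tlr8 was called lower, with 0 UMIs in cDC1-like cells and 1.51 and 2.57 CPM in cDC2-like cells, against 7.93 and 7.10 CPM in the remainder (edgeR adjusted p = 0.000572).

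Monocyte-like cells had 12 of the 51 higher and 3 lower than macrophage-like cells, with 5 of 11 kinases and 3 of 6 transcription factors higher, against 14.3% of all genes higher and 11% lower. The higher genes included Cd36 (2.82 ± 0.565, edgeR adjusted p = 0.000851), the flagellin receptor Tlr5 (1.96 ± 0.418, 0.0018), Irak3, an inhibitory member of the IRAK family (1.75 ± 0.278, 6.42e-05), and Irf7, a transcription factor of interferon genes (1.56 ± 0.259, 0.000109). Lgmn (-1.76 ± 0.446, edgeR adjusted p = 0.00538) and Ctsb (-1.64 ± 0.323, 0.00068) were lower. Neutrophil-like cells had 11 of the 51 higher and 7 lower than monocyte-like cells, against 12.6% and 8.62% of all genes. Tlr6, the paralog of Tlr1 that also pairs with Tlr2, had 63.0 and 17.3 CPM in neutrophil-like cells, against 12.1 and 8.40 CPM in monocyte-like cells (2.49 ± 0.358, 3.08 in replicate 1 and 0.87 in replicate 3; edgeR adjusted p = 4.37e-05). Nfkbia (2.59 ± 0.378, edgeR adjusted p = 5.36e-05), Tnfaip3 (1.85 ± 0.327, 0.000342) and the adaptor Pik3ap1 (2.72 ± 0.490, 0.000416) were higher, the last by 3.35 in replicate 1 and 0.19 in replicate 3. Irf5, a transcription factor downstream of Myd88 (-1.94 ± 0.240, edgeR adjusted p = 7.90e-06), and Ly86, which binds Cd180 (-2.02 ± 0.521, 0.00756), were lower.

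In the Atp6v0d2 Mmp9 subset 18 of the 51 were lower than in the remainder and 1 was higher, against 14.7% and 13% of all genes. Tlr12 and Tlr5 had 0 UMIs in the subset in both tumours, against 6.48 and 5.03 CPM of Tlr12 and 5.95 and 3.66 CPM of Tlr5 in the remainder. Tlr8 had 1 UMI in each tumour, Ticam2 0 and 1 and Irak3 0 and 3, and Ly86 differed by -3.96 ± 0.557 (edgeR adjusted p = 1.2e-05). In the Folr2 subset 0 of the 51 were called by edgeR, with 1 at an unadjusted p under 0.05. In the type I interferon subset Irf7 was the 1 gene called, at 357 and 502 CPM, against 27.0 and 54.3 CPM in the remainder (3.45 ± 0.380, edgeR adjusted p = 2.13e-06). Irf7 was also the 1 gene called between the ZC1-rich and ZC5-rich sides (-0.23 ± 0.057, edgeR adjusted p = 0.0234), where no gene was called with DESeq2 or without the tumour block.

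Between the tumours, which have no replicates and no test, several genes leaned one way across the 15 classes. Replicate 3 stood above replicate 1 in 11 classes for Tlr2 and 12 for Myd88, and below it in 13 for Tlr1, 12 for Tlr13 and 11 each for Tlr3 and Tlr7. The nearly empty droplets leaned alike, with Tlr2 at 148 CPM in replicate 3 and 87.1 CPM in replicate 1, Myd88 at 41.9 and 33.9 CPM, Tlr13 at 19.9 and 33.9 CPM and Tlr1 at 9.93 and 14.0 CPM. The part of free RNA and of depth in these leanings was not tested. Over all but low-level genes, the log2 difference of replicate 3 minus replicate 1 had class medians from -0.074 to 0.407. The medians over classes of Tlr2 (0.342) and Myd88 (0.262) lay within that range. Those of Tlr1 (-0.284), Tlr13 (-0.406), Tlr3 (-0.117) and Tlr7 (-0.107) lay below it.

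As a description over the 30 columns of class and tumour, which share libraries, log2(CPM + 10) of Tlr2 and Cd14 correlated with r = 0.872, Cd14 and Tlr13 with 0.872, Tlr4 and Cd14 with 0.869, and Tlr7 and Unc93b1 with 0.779, whereas Tlr3 and Tlr7 gave -0.194. The gene most like each member among 11481 was Mrc1 for Tlr1 (r = 0.934), Pilra for Tlr2 (0.964), Cd300ld for Tlr4 (0.905), Nlrp3 for Cd14 (0.952) and Ifi205 for Tlr3 (0.834). It was Npc1 for Tlr7 (0.928), Slc11a1 for Tlr13 (0.955), Tifa for Unc93b1 (0.953) and Pira2 for Myd88 (0.817). Next came Cx3cr1 and Selenop for Tlr1, Igsf6 and Clec4n for Tlr2, Atp7a and Zfand2a for Tlr4, and Cxcl2 and Cd300ld for Cd14. Sult1a1 and Dnase1l3 followed for Tlr3, Lair1 and Mgat1 for Tlr7, C5ar1 and Gm5150 for Tlr13, Grn and Tmem55b for Unc93b1, and Fgr and Cyp4f18 for Myd88.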

How the data were processed

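The data were 10x 3' v3 single-cell libraries of CD45-sorted cells from 2 mosaic tumours. The deposited matrices hold counts of UMIs per gene and barcode, not normalised by the authors; per the submitters' processing notes they used Cell Ranger 4.0 and mm10. Each lists 6794880 barcodes, so cells were called here: at least 1000 UMIs and 500 genes and at most 10% mitochondrial UMIs gave 4818 and 6734 barcodes in replicates 1 and 3. Scrublet's own threshold marked 0 doublets in either tumour, so the top 0.8% of scores per 1000 cells were removed (186 and 363).

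Cells were classed by how many listed markers each held above the free-RNA level: at least 5 of 8 for pDC, cDC1 and neutrophils, 4 of 6 for cDC2, monocytes and activated dendritic cells, 5 of 10 for macrophages and 3 of 9 for T or NK cells. Cells with 3 or more markers of another lineage were left out, and other classes held at most 4 macrophage markers. Mgl2 and Atp6v0d2 Mmp9 cells were taken whatever their macrophage marker count, a departure from the planned gate. Cells that met several subset gates (110 and 118) were left out of the fit across classes but kept in the ZC1-rich and ZC5-rich sides.

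Summed counts of 15 classes with at least 10 cells per tumour entered 1 edgeR 4.0.16 quasi-likelihood fit (TMM, filterByExpr, limma 3.58.1, R 4.3.3) with the tumour as block and Benjamini-Hochberg adjustment over all genes, threshold 0.05; markers were left out of the tests. The ZC1-rich and ZC5-rich sides had a fit of their own. DESeq2 1.42.0 was an alternative, and Python 3.11.15 with scanpy 1.11.5 handled cells. The fit was run on simulated data whose columns were drawn independently, with no difference between tumours. That run could not check the p-values where classes of a tumour deviate together. Classes of a tumour share it, and in 105 class pairs deviations by tumour correlated with r from 0.0438 to 0.825 (median 0.237). The members and lists were chosen with earlier results of these data known. All 10 members are named; of the pathway list, up to 6 called genes per comparison with the largest fold changes and 1 direction in both tumours; and 3 genes of like pattern per member. Alternatives left out the block, the filter or a tumour, subtracted 10% of UMIs as free RNA, raised the cell or gate thresholds, or used the outer parts of the code ratio.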

Additional observations from a re-analysis of the deposited data

How the results depend on the processing

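Of the 29 calls in the set, 19 held under every alternative with a test and 10 were lost under at least 1; none changed sign there. Free RNA subtraction lost 9. Without the tumour block, calls over all genes went to 278 in cDC1-like minus cDC2-like cells (657 with it), 1611 in monocyte-like minus macrophage-like (2903), 1568 in neutrophil-like minus monocyte-like (2438), 1891 in the Atp6v0d2 Mmp9 subset (3180), 93 in the type I interferon subset (161), 0 in the Folr2 subset (18) and 0 between the ZC1 and ZC5 sides (42). With 1 more marker per gate the cDC1-like comparison had 429. With 3000 UMIs and 1000 genes per cell, neutrophil-like minus monocyte-like had 1380 and the ZC1 and ZC5 sides 20. The Folr2 subset had 150 with no filter on low counts and 0 with free RNA subtracted; the ZC1 and ZC5 sides had 15 with free RNA subtracted, 0 with DESeq2 and 5 in the outer parts of the ratio. DESeq2 split calls into 1619 higher and 1644 lower for monocyte-like cells (1640 and 1263 by edgeR) and 1984 and 724 for neutrophil-like cells (1448 and 990). The cause of these changes was not tested.

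Signs turned for differences that had not passed: in monocyte-like minus macrophage-like cells, Tlr7 to 0.221 with 1 more marker, and, in a comparison with the remainder alone that was chosen after seeing the data, Tlr4 to -0.056 and Tlr13 to -0.179. In neutrophil-like minus monocyte-like cells Tlr2 was -0.018 without the tumour block, 0.000 with no filter and -0.463 with 3000 UMIs. In the Folr2 subset Tlr2 was -0.007 without the block, -0.015 with no filter, -0.018 with 3000 UMIs and -0.020 with free RNA subtracted, and Myd88 -0.079 with 1 more marker. In the type I interferon subset Tlr2 was -0.004 with no filter. Between the ZC1 and ZC5 sides Tlr3 was -0.052 in the outer parts and Myd88 -0.001 with 1 more marker. Of called values, Tlr4 in neutrophil-like minus monocyte-like cells ranged from -0.462 without replicate 1 to 2.438 without replicate 3. Leaving out a tumour leaves no test. Classes of few cells, such as the 11 pDC-like cells of replicate 1, limit the precision.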

Other observations

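Cells given no class are in none of the comparisons. Their Cd14 level was 1284 CPM in replicate 1 and 828 CPM in replicate 3, and their Tlr3 level 6.38 and 3.79 CPM. Their Unc93b1 level, 294 and 237 CPM, lay between those of monocyte-like cells and macrophage-like cells without a subset in replicate 1, and just below monocyte-like cells in replicate 3. Cells that met several macrophage subset gates held 18.0 and 14.5 CPM of Tlr3, against 7.97 and 6.16 CPM in the remainder without a subset.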
